A study of Mus musculus with 8 samples.

Results

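The BH3-only genes are the cell-death genes of the BCL2 family whose proteins carry only the BH3 motif of that family. The 8 genes Bmf, Bcl2l11, Bbc3, Pmaip1, Bid, Bad, Bik and Hrk were taken by gene symbol from a table of 38918 gene rows, and all 8 had a row. They were followed in BMiFLT3 (15-3) cells, a mouse pro-B cell line from a B-cell precursor leukaemia. The control group had been infected with a retroviral construct for blue fluorescent protein (BFP) and the other group with a construct for Klf2, a zinc-finger transcription factor, and poly(A) RNA was sequenced. The column names of both groups contain BFP, so the Klf2 construct may carry it as well, and both groups share the same parent line. The labels say neither whether infected cells were sorted nor when RNA was taken. Each group was deposited as 4 sequencing lanes of what appears to be 1 library, and the lanes were summed, so each group holds 1 sample.

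BH3-only proteins start the mitochondrial pathway of apoptosis. They bind the survival proteins of the BCL2 family in the groove that receives the BH3 helix, and some of them also engage BAX and BAK, which then open the outer mitochondrial membrane. In the B lineage they set how readily a progenitor dies when cytokine or antigen-receptor signals fail. Several members are controlled mainly by how much RNA is made (Bmf, Bcl2l11, Bbc3, Pmaip1, Hrk), while Bid and Bad are controlled largely on the protein, by cleavage and by phosphorylation.

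The lane totals were close, from 7506567 to 7588695 exon reads in BFP (30133978 in all) and from 7682298 to 7741626 in Klf2 (30835450 in all). With 1 library per group there is no replicate check, no p-value is given, and intervals are 95% intervals for counting error only. CPM here means the exon read count of a gene relative to the size of its library, after TMM scaling, and a ratio is Klf2 over BFP. Klf2 had 3364 exon reads against 314, a ratio of 11.1 (9.93 to 12.6). Of the 13 genes found from a list of 14 B-cell progenitor markers, 9 had at least 1 CPM, among them Cd79a, Pax5 and Vpreb1. Rag1 had 1 read in each library, Rag2 had 7 in BFP and 4 in Klf2, and Kit had 0 and 1. Summed over 11 myeloid markers found, the level was 14.1 CPM in BFP and 6.19 CPM in Klf2, with S100a8, S100a9 and Ly6g at 0 in both. The 3 that reached 1 CPM were Fcgr1 (5.34 and 0.803 CPM), Csf1r (3.76 and 2.34) and Cd14 (3.70 and 2.01). The 7 NK-cell markers summed to 8.36 and 3.25 CPM, nearly all from Klrd1, with Ncr1, Nkg7, Gzma and Prf1 at 0. The 10 T-cell markers summed to 5.05 and 9.07 CPM, with Cd3e, Cd4, Cd8a, Cd8b1 and Bcl11b at 0. The 2 that reached 1 CPM, Trac (3.96 and 6.96 CPM) and Thy1 (0.515 and 1.24), were both higher in Klf2. The 7 erythroid markers found summed to 1.58 and 1.10 CPM, with Hba-a1, Hba-a2 and Alas2 at 0. The part of these genes in the results below was not tested. In these bulk samples fewer cells that express a gene and less of its RNA per cell cannot be told apart.

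The start-site regions of 3 members whose RNA was lower in the Klf2 library are shown first, because KLF proteins bind CACCC and GC-rich boxes and FOXO factors bind TGTTTAC. Each is the stretch of 250 bases before a RefSeq start site (build GRCm38.p6), written 5′ to 3′ on the strand of the gene, with the start site nearest to the end of the gene in the deposited table. Capitals mark matches on either strand to the KLF letters CACCC, to the GC box GGGCGG and to the FOXO letters TGTTTAC. The Bmf window is chr2:118549687-118549936 on the minus strand, the Bbc3 window chr7:16309333-16309582 and the Bcl2l11 window chr2:128125788-128126037, both on the plus strand. Bmf and Bbc3 each had 3 windows in the RefSeq set and Bcl2l11 had 2, and only 1 window of each gene was searched.
Bmf: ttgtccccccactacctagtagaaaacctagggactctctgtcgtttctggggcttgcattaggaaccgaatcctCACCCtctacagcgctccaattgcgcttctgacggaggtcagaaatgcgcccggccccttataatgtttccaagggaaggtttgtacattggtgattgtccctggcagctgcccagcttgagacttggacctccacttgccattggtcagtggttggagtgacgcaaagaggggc
Bbc3: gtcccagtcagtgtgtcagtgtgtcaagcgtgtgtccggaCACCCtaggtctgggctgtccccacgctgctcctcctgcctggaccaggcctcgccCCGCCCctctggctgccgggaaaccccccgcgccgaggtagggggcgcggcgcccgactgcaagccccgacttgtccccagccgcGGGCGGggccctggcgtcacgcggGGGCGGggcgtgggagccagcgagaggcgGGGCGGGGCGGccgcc
Bcl2l11: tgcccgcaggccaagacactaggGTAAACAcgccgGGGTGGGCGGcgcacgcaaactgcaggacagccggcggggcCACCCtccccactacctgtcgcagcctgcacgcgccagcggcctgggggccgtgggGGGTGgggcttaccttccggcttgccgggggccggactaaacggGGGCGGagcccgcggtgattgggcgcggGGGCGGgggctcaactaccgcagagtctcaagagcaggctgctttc
The Bmf window had 1 match to CACCC, 175 bases before the start site, and 0 to the other pair of motifs. The Bbc3 window had 1 match to CACCC, 210 bases before the start site, and 5 to GGGCGG, the nearest 11 bases before it and sharing a base with its neighbour. The Bcl2l11 window had 3 matches to CACCC, 3 to GGGCGG, and 1 to TGTTTAC that lay 227 bases before the start site. Its first match to CACCC overlaps a match to GGGCGG. Windows were used for 6 of the 8 genes. Pmaip1, whose RNA was also lower in the Klf2 library, and Bik were left out of this search. Bid and Bad, whose ratios lay near 1, had 2 and 1 matches to CACCC and 3 matches each to GGGCGG. Hrk, which had no reads, had 1 match to CACCC and 2 to GGGCGG. Of the windows used, only that of Bmf had 0 matches to GGGCGG. Any part of these letters in the ratios was not tested. Over 32851 RefSeq windows of the same length, 52.0% held CACCC, 32.7% GGGCGG and 3.17% TGTTTAC. Base composition differed between the windows. G and C made up 54.0% of the Bmf window, with 8 CG dinucleotides, against 76.4% with 27 in Bbc3 and 72.0% with 24 in Bcl2l11.

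In the Klf2 library Bmf was 11.6-fold lower than in BFP (9.79 to 13.8), Bbc3 2.38-fold lower (2.11 to 2.68), Bcl2l11 and Pmaip1 were lower by less than 2-fold, Bad and Bid were close to their BFP levels, and Bik and Hrk had no read in either. A gene was called when its ratio was at least 2-fold and the interval left out 1, provided it reached 1 CPM in one library or the other. By this rule 2 of the 8 genes (Bmf and Bbc3) were called lower, against 5.67% of all 10850 genes that had at least 1 CPM. None was called higher, against 2.45% of those genes. On the deposited RPKM the split over all genes was 559 lower and 128 higher, against 615 and 266 by the main rule. With no limit on the fold, 4 genes had an interval below 1 (background 37.3%) and 1 had an interval above 1 (37.1%), so small differences of this kind are common in these deep libraries. The 4 Klf2 lanes lay wholly below the 4 BFP lanes for the same 4 genes, Bmf, Bbc3, Bcl2l11 and Pmaip1, as they did for 30.7% of all genes tested, and they lay wholly above for none (32.3%). Only 6 of the 8 genes reached 1 CPM, and the counts are given as a description.

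**Figure D1:**
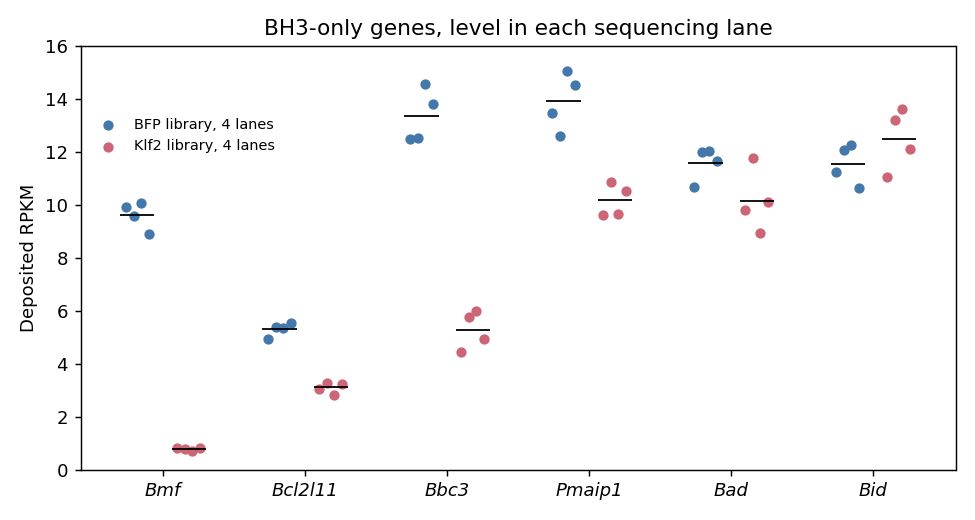
Deposited RPKM (y axis, linear) of the 6 BH3-only genes with reads, for each of the 4 lanes of the BFP library (blue) and the Klf2 library (red), with the mean of the lanes as a black line. For Bmf the BFP lanes lie between 8.91 and 10.1 and the Klf2 lanes between 0.715 and 0.817, while the lanes of Bad and Bid overlap between the libraries.

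Bmf and Bcl2l11 encode the members that are held at the cytoskeleton in healthy cells, Bmf through the dynein light chain DYNLL2 on the actin and myosin V motor and Bim, the product of Bcl2l11, through DYNLL1. Bmf (chromosome 2, 118528757 to 118549687 in mm10, exon length 5253 bases) had 462, 446, 468 and 419 exon reads in the 4 BFP lanes and 39, 37, 34 and 39 in the Klf2 lanes. Every Klf2 lane lay far below every BFP lane. In all this was 57.7 CPM in BFP and 4.99 CPM in Klf2, a ratio of 0.0864 (0.0726 to 0.102), and only 11 of the 10850 genes tested had a lower ratio. All of its reads were uniquely placed. Reads across exon junctions, which come from spliced RNA, were 68 in BFP and 4 in Klf2, a ratio of 0.0612 (0.0162 to 0.164). Median coverage over its exons was between 3 and 4 reads per lane in BFP and 0 in each Klf2 lane, so the Klf2 reads were too sparse to compare its 8 annotated transcripts.

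Bcl2l11 (chromosome 2, 128126038 to 128162547, exon length 8029 bases) encodes Bim, the member most closely tied to the death of cytokine-deprived and autoreactive lymphocytes. It had 351, 385, 380 and 397 exon reads in the BFP lanes and 223, 239, 206 and 238 in the Klf2 lanes, with no overlap. The levels were 48.7 CPM in BFP and 30.3 CPM in Klf2, a ratio of 0.623 (0.573 to 0.677) that stayed short of 2-fold. Of all genes tested, 11.2% had a lower ratio. Junction reads gave 134 and 75, a ratio of 0.582 (0.433 to 0.778). The tethering partners themselves, given outside the rule for named genes, did not pass 2-fold. Dynll2 was at 31.2 CPM in BFP and 31.6 in Klf2, and Dynll1 was at 230 and 269 CPM.

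Bbc3 and Pmaip1 encode PUMA and Noxa, both known as direct targets of p53. Bbc3 (chromosome 7, 16309616 to 16318205, exon length 2008 bases) had 222, 223, 259 and 248 exon reads in the BFP lanes and 81, 105, 109 and 90 in the Klf2 lanes. The highest Klf2 lane was below the lowest BFP lane by a wide margin. The levels were 30.6 CPM in BFP and 12.9 CPM in Klf2, a ratio of 0.421 (0.373 to 0.474), and 3.53% of genes tested had a lower ratio. Pmaip1 (chromosome 18, 66458604 to 66465550, exon length 2646 bases) had 316, 296, 353 and 344 exon reads in the BFP lanes and 231, 261, 231 and 254 in the Klf2 lanes. These lanes did not overlap, but the gap was small. The levels were 42.1 and 32.7 CPM, a ratio of 0.777 (0.714 to 0.844), with 23.6% of genes tested lower. The intervals of Bbc3 and Pmaip1 did not overlap. Trp53, which encodes p53 and is given outside the rule for named genes, was at 205 CPM in BFP and 207 CPM in Klf2, a ratio of 1.01 (0.976 to 1.05). Its RNA does not measure p53 protein or activity, and any part of p53 in these ratios was not tested.

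Bid and Bad encode proteins that are switched on after translation, Bid by caspase-8 cleavage and Bad by loss of phosphates that keep it bound to 14-3-3 proteins. Bid (chromosome 6, 120891930 to 120916853, exon length 3550 bases) had 353, 380, 386 and 338 exon reads in the BFP lanes and 357, 425, 438 and 392 in the Klf2 lanes. The lanes overlapped. The levels were 46.9 and 53.9 CPM, a ratio of 1.15 (1.07 to 1.24), the only member with an interval above 1. On its uniquely placed reads, 93.3% of all, the ratio was 1.21 (1.12 to 1.30). Its far end overlaps Bcl2l13, which had a ratio of 1.06 (1.01 to 1.11), and reads in the overlap may not be separated.

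Bad (chromosome 19, 6941861 to 6951898, exon length 2007 bases) had 190, 214, 214 and 209 exon reads in the BFP lanes and 179, 214, 162 and 185 in the Klf2 lanes. In reads before scaling, 1 Klf2 lane equalled the highest BFP lanes and the other 3 lay below the lowest. In CPM the BFP lanes lay between 24.5 and 27.6 and the Klf2 lanes between 21.8 and 28.7, so the lanes overlapped. The levels were 26.6 and 24.8 CPM, a ratio of 0.931 (0.842 to 1.03), an interval that reaches from 1.19-fold lower to 1.03-fold higher. With scaling on total reads the ratio was 0.874 (0.791 to 0.967), and its interval then lay below 1. Bad overlaps the end of Gpr137, which had 660 reads in BFP and 288 in Klf2, a ratio of 0.454 (0.394 to 0.522). Reads in that overlap may not be separated, and 94.1% of Bad exon reads were uniquely placed.

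Bik (chromosome 15, 83526862 to 83544635) and Hrk (chromosome 5, 118164648 to 118189478) encode BH3-only proteins known mainly from epithelial cells and from neurons and blood progenitors. Both had 0 exon reads and 0 gene reads in each of the 8 lanes. With 3 reads as the limit that no read allows, levels up to 0.0965 CPM (BFP library) and 0.1004 CPM (Klf2 library) would go unseen, so no comparison could be made. They were not alone in this, since 57.1% of the rows of the table had 0 exon reads in both libraries.

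**Figure D2:**
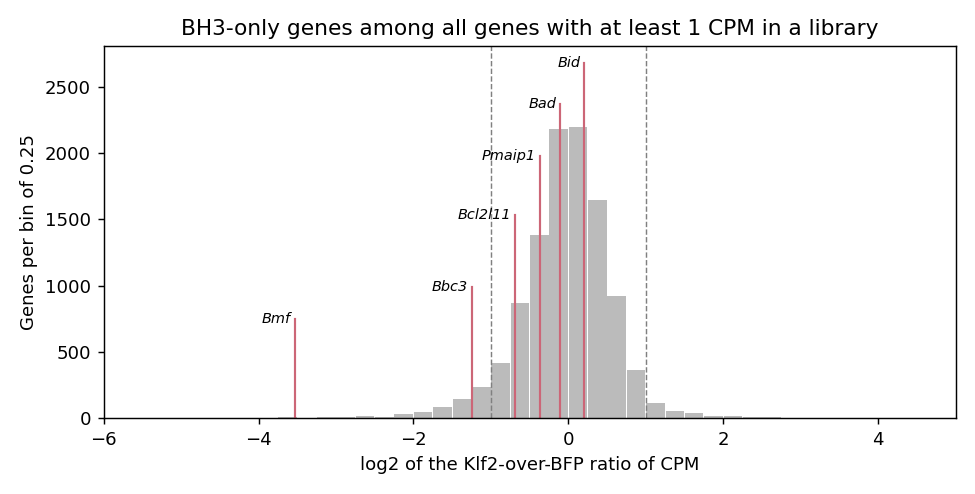
Number of genes (y axis) by log2 of the Klf2-over-BFP ratio of CPM (x axis, bins of 0.25) for genes with at least 1 CPM in a library and reads in both, with red lines at the 6 BH3-only genes. Line heights carry no value and dashed lines mark a 2-fold difference. Bmf at -3.53 stands in the far lower tail and Bbc3 at -1.25 lies past the dashed line, while Bid at 0.20 lies in the middle.

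Per length of exon, the order of the members changed between the libraries. In mean RPKM over lanes, Pmaip1 (13.9) and Bbc3 (13.3) were the highest in BFP, then Bad (11.6), Bid (11.5) and Bmf (9.61), with Bcl2l11 (5.30) lowest of those with reads. Lanes of Pmaip1 and Bbc3 overlapped, as did those of Bad and Bid, but lanes of 1 library cannot settle the order of such neighbours. The order within a library also rests on the annotated exon length of each gene. In the Klf2 library Bid had the highest mean (12.5 RPKM), followed by Pmaip1 (10.2) and Bad (10.1), and the lanes of Bad overlapped those of both. Below them were Bbc3 (5.28), Bcl2l11 (3.11) and Bmf (0.781). Bmf and Bcl2l11 thus changed places at the low end of the order.

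The summed RPKM of the 8 genes was 65.3 in BFP and 42.0 in Klf2. Bmf made up 14.7% of this sum in BFP and 1.86% in Klf2, and Bbc3 20.4% and 12.6%, while Bid made up 17.7% and 29.8%. Summed as reads, the genes were at 253 CPM in BFP and 160 CPM in Klf2, a ratio of 0.632 (0.609 to 0.655). Without Bmf the ratio was 0.794 (0.764 to 0.825), nearer to 1 but with an interval still below it.

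Reads from introns do not use the exon reads above. They can come from unspliced RNA of the gene, but which RNA gave them was not tested. They were taken as all reads of a gene less its exon reads and scaled like the exon reads. Bmf had 173 intron reads in BFP and 19 in Klf2, a ratio of 0.114 (0.0672 to 0.184), close to its exon ratio. Bcl2l11 had 358 and 256, a ratio of 0.744 (0.631 to 0.876). Bbc3 had 805 and 453, a ratio of 0.586 (0.521 to 0.658), short of 2-fold. Those of Pmaip1 (0.853), Bid (1.07) and Bad (1.03) had intervals that included 1. On intron reads 3 genes thus had an interval below 1 (background 28.9% of 10398 genes) and 1 of them, Bmf, was at least 2-fold lower (6.15%).

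Bbc3 stood apart from the other members in the share of its gene reads that lay outside exons. Of its gene reads 45.8% (43.5 to 48.2) lay outside exons in BFP and 54.1% (50.6 to 57.5) in Klf2, against 15.2% and 15.1% over the whole libraries and between 8.79% and 23.4% for the other 5 members with reads in either library. The odds of an exon read against an intron read were lower in Klf2 for Bbc3, at 0.719 of those in BFP (0.609 to 0.848, Woolf's interval). It was the only member whose interval excluded 1, but 22.3% of 9128 genes had an interval below 1 by the same measure. On all gene reads, which add the intron reads, the ratio of Bbc3 was 0.505 (0.465 to 0.549), and the gene no longer passed the 2-fold limit. Bmf then had a ratio of 0.0904 (0.0768 to 0.106) and was the only member called lower, against 5.56% of 12146 genes.

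**Figure D3:**
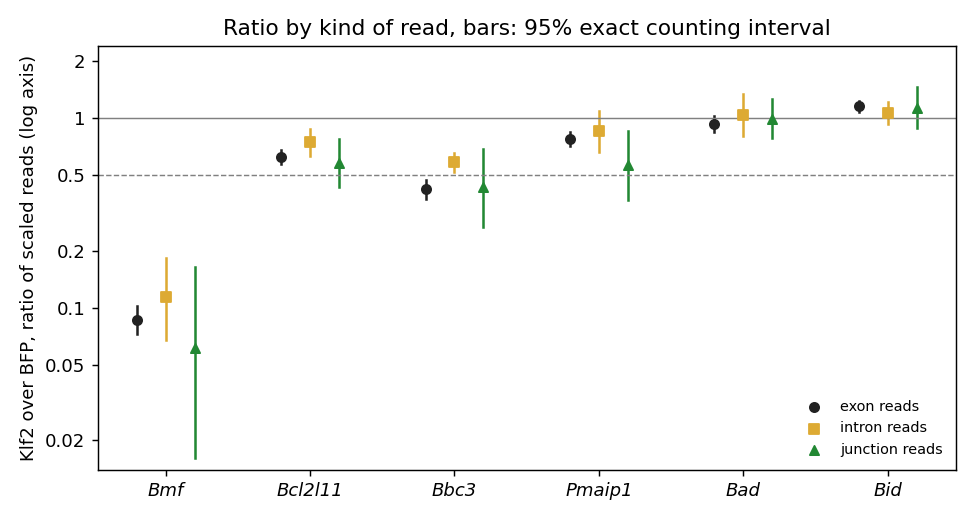
Klf2-over-BFP ratio of scaled reads (y axis, log scale) of 6 BH3-only genes for exon reads (black circles), intron reads (yellow squares) and exon-junction reads (green triangles), with vertical lines for the 95% exact counting interval. The solid line is equality and the dashed line 2-fold lower. The 3 kinds of read of Bmf all lie below 0.2, and the exon ratio of Bbc3 (0.421) lies below its intron ratio (0.586).

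The nearest genes to Bmf and Bbc3 were sought by distance in log2(CPM + 1) over the 2 libraries, which holds only a level and a ratio. Nearest to Bmf were Faim3 (64.0 CPM in BFP and 8.37 in Klf2, distance 0.66), Gfi1 (38.5 and 7.93, distance 0.81) and Trim66 (34.0 and 3.75, distance 0.82). No gene with a settled symbol lay closer, so the pair of values of Bmf was a sparse one. Nearest to Bbc3 were Sfxn3 (29.6 and 13.0 CPM), Slc27a4 (29.7 and 13.2 CPM) and Egln3 (29.3 and 13.1 CPM), all within a distance of 0.07.

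Most genes for the proteins that BH3-only members bind did not pass the 2-fold limit. Of 9 BCL2-like survival genes, 5 had at least 1 CPM. Of these 5, 1 was called lower and 0 higher, against 5.67% and 2.45% of all genes tested. With no limit on the fold, 4 had an interval below 1 (background 37.3%). The median log2 ratio was -0.24 against -0.01 over all genes tested. The called gene, Bcl2l2, had only 98 reads in BFP and 31 in Klf2, of which 24.0% were uniquely placed. The list had 0 called genes on uniquely placed reads, on deposited RPKM and with a floor of 10 CPM, although Bcl2l2 kept a log2 ratio of -1.69 on RPKM and an interval of 0.0840 to 0.625 for the ratio of its uniquely placed reads. Mcl1, given outside the rule for named genes, had the highest level of the list, at 429 and 380 CPM, a ratio of 0.886 (0.864 to 0.909). Bcl2l1, also outside it, was at 47.9 and 50.4 CPM, a ratio of 1.05 (0.979 to 1.13). Bcl2, the founding survival gene, was at 25.7 and 21.8 CPM, and Bcl2a1b had 280 and 223 reads. Bcl2a1b has near copies, with 14.5% of its reads placed uniquely, and these gave a ratio of 1.13 (0.697 to 1.85). Of the pore-forming effectors, Bax was at 89.4 CPM in BFP and 75.4 in Klf2, a ratio of 0.843 (0.797 to 0.892). Bak1 was at 84.4 and 132 CPM, a ratio of 1.57 (1.49 to 1.65), where only 17.6% of reads had a unique place.

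Among 8 other genes with a BH3-like motif, 7 had at least 1 CPM, with a median log2 ratio of 0.08. Of these 7, 2 were called lower and 0 higher, against 5.67% and 2.45% of all genes tested. The pair was Bnip3 (298 CPM in BFP and 121 in Klf2) and Bnip3l (125 and 44.6 CPM), mitochondrial proteins known for mitophagy under low oxygen. On uniquely placed reads their ratios were 0.417 and 0.401. Bcl2l15 was at 6.59 and 12.7 CPM, a ratio of 1.92 (1.62 to 2.29), and it passed the 2-fold limit only without lane 2.

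Downstream of the mitochondria, 16 of 17 genes of the apoptosome, caspases and their inhibitors had at least 1 CPM, with a median log2 ratio of 0.12. None was called in either direction, against 5.67% lower and 2.45% higher over all genes tested. Cycs, which encodes the cytochrome c that leaves the mitochondria, was at 94.1 CPM in BFP and 163 in Klf2, with 15.4% of its reads uniquely placed. Aifm1, which encodes a mitochondrial flavoprotein, was at 42.2 and 71.8 CPM, and Birc2, a ubiquitin ligase that restrains death signalling, at 34.2 and 21.0 CPM. Of 8 genes of the death receptor arm, the route that cleaves Bid, 5 had at least 1 CPM and none was called, with a median of -0.32. Cflar, an inhibitor of caspase-8, was at 68.9 and 52.7 CPM, Tradd at 20.3 and 15.6 CPM, and Tnfrsf10b at 13.8 and 11.1 CPM.

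Of 16 genes for transcription factors linked to BH3-only genes, 15 had at least 1 CPM, and the median log2 ratio was -0.53. Of these 15, 5 were called lower and 0 higher, against 5.67% and 2.45% of all genes tested. Jun, which drives Bim in stressed neurons, was at 35.4 CPM in BFP and 11.4 in Klf2, Fos at 25.2 and 10.8 CPM, and Egr1 at 670 and 264 CPM. The other called genes were Ddit3 and Bcl6, the latter with 70 and 19 reads. The FOXO genes of the list, given outside the rule for named genes, did not pass the 2-fold limit. Foxo3, a known activator of Bcl2l11 and Bbc3, was at 98.4 and 62.1 CPM, a ratio of 0.631 (0.596 to 0.669). Foxo1 was at 325 and 273 CPM, a ratio of 0.838, and Foxo4 at 34.7 and 20.3 CPM, a ratio of 0.585. With no limit on the fold, 11 of the 15 had an interval below 1 (background 37.3%) and 2 had one above 1 (37.1%). These 2, also outside the rule, were Runx1, with a ratio of 1.48, and E2f1, with a ratio of 1.16. Any part of these factors in the ratios of BH3-only genes was not tested.

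Of 24 modifiers and partners of BH3-only proteins, 23 had at least 1 CPM, and the median log2 ratio was 0.02. Of these 23, 1 was called lower and 0 higher, against 5.67% and 2.45% of all genes tested. The called gene was Usp27x, which encodes a deubiquitinase that stabilises Bim, with 335 reads in BFP and 89 in Klf2, a ratio of 0.276 (0.216 to 0.350). Ube2s, a ubiquitin-conjugating enzyme, was at 194 and 304 CPM, with 11.5% of its reads uniquely placed and a ratio of 1.30 on those.

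**Figure D4:**
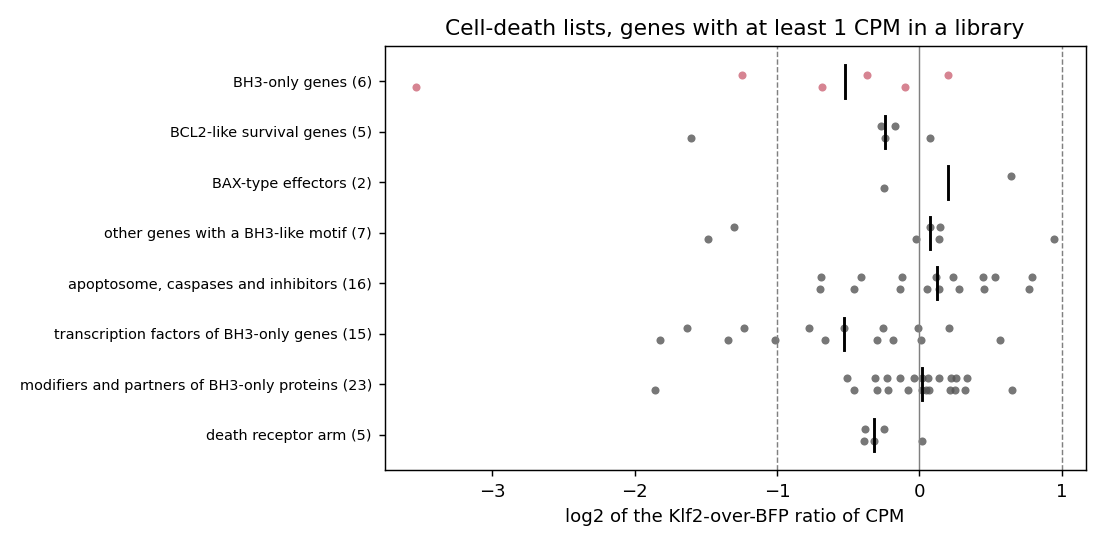
Log2 of the Klf2-over-BFP ratio of CPM (x axis) for the genes with at least 1 CPM in 8 cell-death lists (rows, number of genes in brackets), with 1 dot per gene, a black bar at the list median and dashed lines at a 2-fold difference. Bmf at -3.53 is the lowest dot of any row, and most genes of the effector, caspase and partner lists lie between the dashed lines.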

How the data were processed

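Poly(A) RNA of BMiFLT3 (15-3) cells was sequenced on an Illumina instrument, per the labels' protocols, which name more than 1 library kit without saying which library used which, so kit and construct cannot be told apart. The submitters' processing notes name CASAVA 1.8.2 and mm10; the aligner, counting program, annotation and use of strand are not stated in any source used here. Per the file headers, the authors deposited counts of exon, gene and junction reads, a median coverage, RPKM and a signed fold score per gene. RPKM values, recomputed from the deposited columns, differed by at most 0.0258.

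Chi-square of lane counts per degree of freedom was 1.29 (BFP) and 1.27 (Klf2), and 1.03 in both on uniquely placed reads, under the limit of 1.5. The lanes thus showed little more than sampling noise between them, and each group counts as 1 sample. TMM factors from edgeR 4.0.16 (R 4.3.3) were 1.03 and 0.969. Ratio intervals are Clopper-Pearson, conditional on the summed reads, computed in SciPy 1.17.1, and shares have exact binomial intervals. Reads without molecular identifiers are not independent molecules, so intervals and the limit of 3 reads for a count of 0 cover counting error only. The deposited fold score of the authors was not used. The members, lists and rules were chosen with earlier results of these data known. Named genes are the 8 members, Klf2, up to 3 genes of each list with the largest log2(CPM + 1) difference, those past the rule first, and the 3 genes nearest to each called member, leaving out provisional symbols. Some genes that these rules pick are not reported here. Genes outside this rule are named as such, and marker genes are named for their level only. Alternatives were other reads, scalings, floors and limits and leaving out each lane.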

Additional observations from a re-analysis of the deposited data

How the results depend on the processing

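The counts of BH3-only genes kept within 1.5 times under the alternatives run, except that on all gene reads 1 gene (Bmf) was called lower instead of 2. With a limit of 1.5-fold Bcl2l11 joined, making 3. For single members, 53 of 54 alternative log2 ratios lay within the counting interval of the main value and none changed sign; the exception was Bbc3 on all gene reads, at -0.99. The log2 ratio ranged from -3.62 to -3.47 for Bmf and from -1.34 to -0.99 for Bbc3. Over all genes, the count at least 2-fold lower was 277 with a floor of 10 CPM and 1505 with a limit of 1.5-fold. The count at least 2-fold higher was 121 with a floor of 10 CPM, 432 with no floor, 1112 with a limit of 1.5-fold and 128 on deposited RPKM. These changes follow from the genes and limits each setting admits, apart from RPKM, where the cause was not tested. Without 1 lane the counts were 632 to 654 lower and 267 to 281 higher. Alternatives for other named genes and lists were added after seeing the data. Bcl2a1b changed sign among them, to 0.18 on uniquely placed reads, and the cause was not tested. No paired analysis was possible because each group is 1 library whose lane numbers mark technical reads and no test was run. Depth limits Bik and Hrk, which had no reads.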
